A study of Rattus norvegicus with 10 samples.

Results

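The 2 genes described here are Cldn5, which encodes the main claudin of brain vessels, and Cdc45, which encodes a replication factor. They were taken as all rows of the deposited gene table that carry either symbol, which gave 2 of 32623 rows. The pair was selected on measured values of these libraries, namely the counts of 0 for Cldn5, the lower level of Cdc45 with EA and the position of one row inside the other. Those values are therefore given as a description. Of the 2 genes, 1 passed the filter on low values, which asked for 0.5 FPKM or more in 5 or more of the 10 libraries and which 15169 rows passed. FPKM is the number of fragments scaled to the length of the transcript and to the total of the library.

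The libraries hold poly(A) RNA from the cortices of adult male Sprague-Dawley rats. The EA group holds 5 libraries of rats that received electroacupuncture, an electric current passed through needles at the acupoints Baihui and Shuigou. The control group holds 5 libraries of rats that were bound for the same time, and no needling is described for them. The rats were perfused with saline before the cortex was taken, and each library is whole cortex tissue with all its cell types. The labels number the libraries within each group but do not say outright that each comes from a different rat, so the p-values measure the spread between these libraries, which may in part be technical. The deposited counts sum to 47843590 to 60941939 in EA libraries (median 55326262) and to 55223193 to 61707722 in control libraries (median 59113127). The summed FPKM of small structural RNAs (4049 rows, by the biotypes in the table) set 2 libraries apart. It came to 2440 in EA 5 and 1986 in EA 2, while EA 1, EA 3 and EA 4 had 1217 to 1341 and the controls had 1074 to 1171.

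Claudin 5 is a membrane protein of the tight junctions that seal neighbouring endothelial cells, and it limits the passage of small molecules across the blood-brain barrier. Cdc45 works in dividing cells, where it joins the Mcm hexamer and the GINS complex to form CMG, the helicase that unwinds DNA at replication forks. Most cells of the adult cortex do not divide. Both genes sit side by side on rat chromosome 11 and are read from opposite strands.

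In the coordinates of the deposited table (Rnor_6.0), Cldn5 (ENSRNOG00000045811, transcript ENSRNOT00000071806) lay on the minus strand at chr11:86356294-86357718. Cdc45 (ENSRNOG00000050071, transcript ENSRNOT00000072027) lay on the plus strand at chr11:86329012-86358453. Both rows had 1 transcript. The Cldn5 row covered 1425 bases and the Cdc45 row covered 29442 bases. All of the Cldn5 row (100%) fell inside the Cdc45 row, of which it made up 4.84%. The Cdc45 row ran on for 735 bases past the start site of Cldn5, so its far end, where a plus-strand transcript stops, enclosed the whole claudin gene and the sequence before it. The table gives no exons, so which parts of Cldn5 lie in an exon of Cdc45 cannot be read from it. In the RefSeq annotation of a later build, GRCr8, the 2 genes are neighbours and their spans do not overlap.

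The stretch around each start site is shown because the start of Cldn5 is among the bases that the Cdc45 row encloses. RefSeq sequences in GRCr8 were matched by symbol for 2 of 2 genes, each with 250 bases before the start and 50 after it, and each is written along the strand of its gene. The Cldn5 stretch lies on the minus strand at chr11:95718549-95718848 and the Cdc45 stretch on the plus strand at chr11:95689928-95690227. Capitals mark matches of the ETS core GGAA on either strand, the letters bound by a family of factors that includes endothelial regulators such as Erg.
Cldn5: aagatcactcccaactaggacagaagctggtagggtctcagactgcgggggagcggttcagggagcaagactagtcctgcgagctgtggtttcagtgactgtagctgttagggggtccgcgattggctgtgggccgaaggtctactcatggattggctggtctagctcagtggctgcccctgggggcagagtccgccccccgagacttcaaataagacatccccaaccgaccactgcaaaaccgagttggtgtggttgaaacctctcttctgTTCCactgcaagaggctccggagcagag
Cdc45: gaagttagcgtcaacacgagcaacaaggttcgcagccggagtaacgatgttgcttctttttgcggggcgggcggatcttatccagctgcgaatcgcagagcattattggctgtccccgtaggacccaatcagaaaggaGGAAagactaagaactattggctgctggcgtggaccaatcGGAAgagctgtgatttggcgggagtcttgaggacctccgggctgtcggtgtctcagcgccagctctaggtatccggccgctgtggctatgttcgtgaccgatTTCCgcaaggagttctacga

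The ETS core had 1 match in the stretch of Cldn5, past the start site, and 3 matches in that of Cdc45. It occurs in 95.8% of all 33469 promoters of the same length, so its presence sets neither gene apart. The SOX core ACAAT, found in 33.7% of all promoters, had 0 matches in either stretch. The E2F cores TTTGGCGC, TTTCCCGC, TTTGCCGC and TTTCGCGC, letters bound by regulators of replication genes and found in 2.14% of promoters on either strand, also had 0 matches. The TATA box TATAAA, found in 14.2% of promoters, had 0 matches. A count of 0 says only that these exact letters are not in this window. The Cdc45 stretch holds tttggcgg, which differs from the core TTTGGCGC in its last base alone. Near matches were not counted in either stretch, and binding was not tested. The base composition was 57.7% G and C for Cldn5 and 55.3% for Cdc45.

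Cldn5 had 0 counts in all 5 EA libraries. In the control libraries it had 26 counts in control 1, 115 counts in control 5 and 0 counts in controls 2, 3 and 4. Its FPKM was 1.25 in control 5 and 0.291 in control 1, and it reached 0.5 in 1 library only. Cldn5 therefore failed the filter and was not tested between the groups. Other endothelial genes, such as Slc2a1, were well above 0 in the same libraries, so the row is said only to be listed at 0, and no fold change is given.

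Nearly all counts at the locus were given to Cdc45. It had 4122, 4273, 4210, 5006 and 4288 counts in EA 1 to EA 5, against 5243, 5848, 6673, 5652 and 6567 counts in control 1 to control 5. Over the 10 libraries, 141 of the 52023 counts of both rows (0.271%) were given to Cldn5. The share of Cldn5 in the counts of both rows was 1.72% in control 5 (95% exact binomial interval 1.42 to 2.06%) and 0.493% in control 1 (0.323 to 0.722%). In the other 8 libraries it was 0, which allows a share of up to 0.0450% (control 3) to 0.0728% (EA 1) at 3 counts. These intervals and limits cover counting error only. Control 1 and control 5 lay above these limits. This is a description only, since the counts of 0 were among the values that chose the pair. The intervals also treat the estimated counts as independent draws, though how the counts were derived is not stated. Adding the counts of Cldn5 to those of Cdc45 left control 1 the lowest and control 3 the highest of the controls in CPM.

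**Figure D1:**
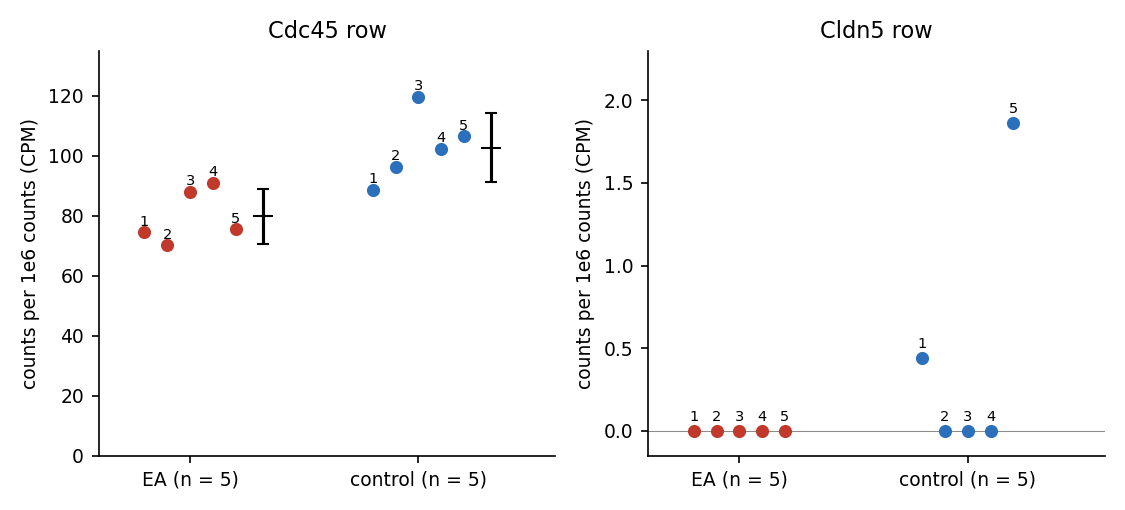
CPM, counts scaled to the library total, of the Cdc45 row (left panel) and the Cldn5 row (right panel) in 5 EA and 5 control libraries, with numbered points for libraries and, for Cdc45, a bar for the mean and SD. Cdc45 lies between 70.1 and 91.1 in EA and between 88.7 and 120 in control, and Cldn5 is above 0 in control 1 and control 5 alone.

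The length over which the authors counted each row was worked out from its count and its FPKM, since their quotient is proportional to that length. The scale was set in each library by 311 to 393 rows with 1 transcript, at least 500 counts and a count and FPKM that correspond to their whole span. The Cdc45 row had been counted over 6390 to 6392 bases in all 10 libraries, which is 21.7% of its span, so most of the span was left out of the count. Cldn5 had been counted over 1432 bases in control 5 and 1455 bases in control 1, close to its span. The whole Cldn5 row equals 22.3% of the length counted for Cdc45.

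If every count of both rows lay in the 1425 bases of Cldn5, the locus would stand at 47.3 to 61.3 FPKM in EA libraries (median 50.8) and at 60.1 to 80.7 FPKM in control libraries (median 69.1). This is the upper limit that the counts allow for Cldn5, with a mean of 61.7 FPKM against the 0.154 FPKM deposited for its row. The library protocol marks strand with dUTP, but whether alignment, assembly and counting used it is not stated. Without strand, reads of Cldn5 and of the Cdc45 sequence on the other strand cannot be told apart, and the table alone does not show how many of the Cdc45 counts came from Cldn5.

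Rows in the same position were looked at across the table, with a threshold of 100 counts chosen after values were seen. Of 572 protein-coding rows lying wholly inside a protein-coding row of the other strand, 231 had at least 100 counts in some library, and 12 of these (5.19%) were at 0 in at least 1 other library. Among rows inside a row of the same strand only, this held for 6 of 115 (5.22%), and among rows inside no other protein-coding row for 148 of 13196 (1.12%). Cldn5 is among the 231 and the 12 only through control 5, where it had 115 counts. Its counts of 0 were among the values that chose the pair, so its place here is a description only. Cldn5 was the only row of the 231 that stood at 0 in at least 8 libraries. The other two of these rows that were at 0 in at least 5 libraries were LOC103692570, inside AABR07063281 (5 libraries), and LOC108348062, inside Arel1 (7 libraries). A further 6 rows that lie inside no other row were at 0 in at least 8 libraries, so such a pattern was not restricted to nested rows.

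Among the claudins, 28 rows carried a symbol of the family and 8 passed the filter. Cldn11, the claudin of myelin, averaged 31.5 ± 5.94 FPKM in EA and 34.6 ± 1.99 FPKM in control libraries (SD, n = 5 each). Cldn10 averaged 23.1 ± 3.71 FPKM in EA and 23.7 ± 1.06 FPKM in control. Cldn12 averaged 10.9 ± 0.663 FPKM in EA and 11.05 ± 0.622 FPKM in control. Cldn15 and Cldn3 followed at means over all libraries of 1.11 and 0.626 FPKM. Cldn5 came at rank 11 with 0.154 FPKM. None of the 5 highest claudins passed the test (adjusted p from 0.624 to 0.998, edgeR).

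Cdc45 averaged less in EA libraries, though the difference did not pass the threshold. Its FPKM was 11.2, 10.6, 13.3, 13.7 and 11.3 in EA 1 to EA 5, with a mean of 12.004 ± 1.38 (SD, n = 5). In control 1 to control 5 it was 13.3, 14.5, 18.0, 15.4 and 16.0, with a mean of 15.5 ± 1.74 (SD, n = 5). In CPM (counts scaled to the total of the library) it averaged 79.8 ± 9.15 in EA and 103 ± 11.6 in control (SD, n = 5 each). The groups overlapped by 1 library on each side, since EA 4 (91.1 CPM) lay above control 1 (88.7 CPM). The other 4 EA libraries lay below all controls in this unit. With the TMM library scaling that the test used, EA 3 (92.1 CPM) and EA 4 (90.445 CPM) both lay above control 1 (90.401 CPM).

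In edgeR's quasi-likelihood test the log2 fold change of Cdc45 (EA over control) was -0.34 (SE 0.09, adjusted p = 0.186 over 15169 genes), which ranked 250 by p and amounts to 21.0% less. Over all genes, 0.0198% were called (3 genes, all higher, with an adjusted p below 0.05 and a change of more than 1.2 times), and 7.15% were lower at an unadjusted p under 0.05. Nothing is read from Cdc45 being 1 of the lower genes, since the pair was chosen with that contrast known. With the counts of both rows summed the log2 fold change was -0.35 (SE 0.09, adjusted p = 0.183). DESeq2 on the same counts passed the threshold for Cdc45 (adjusted p = 0.0213) and called 166 genes. The study itself, with DESeq2, called Cdc45 significantly lower in EA in these libraries. The values of Cdc45 are therefore not independent of that choice. In bulk tissue, fewer cells of a type and less RNA per cell cannot be told apart. Without EA 2 and EA 5, which held more structural RNA, the log2 fold change was -0.25 (adjusted p = 0.542).

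Neither Cdc45 (adjusted p = 0.186, edgeR) nor any tested gene around the locus passed the threshold. Within 100000 bases of Cldn5 the table holds 8 rows, of which 6 passed the filter. Hira, a histone chaperone, had a log2 fold change of -0.10 (SE 0.04, adjusted p = 0.343, edgeR). Mrpl40, a protein of the mitochondrial ribosome, had -0.14 (SE 0.08, adjusted p = 0.491). The values were -0.15 for LOC498122 (adjusted p = 0.640), 0.08 for Ufd1 (adjusted p = 0.648) and -0.22 for LOC100362453 (adjusted p = 0.894). Ufd1, a cofactor of the segregase that extracts ubiquitylated proteins, lies next to the start of Cdc45 and had a level of 27.5 ± 3.24 FPKM in EA and 26.3 ± 1.47 FPKM in control libraries (SD, n = 5 each). LOC100362453 varied most, from 280 to 2218 counts in EA and from 695 to 2847 counts in control.

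Next, the level of Cdc45 was set beside those of its partners in FPKM. Its mean over the 10 libraries was 13.7 FPKM, above all 10 listed partners in CMG. Gins2, a GINS subunit, was the nearest of them at 11.3 FPKM, followed by Mcm7 at 4.71 FPKM and Mcm4 at 2.56 FPKM. Gins4 stood at 2.23, Mcm6 at 1.44, Mcm2 at 1.299, Gins3 at 1.25 and Mcm3 at 0.667 FPKM. Mcm5 (0.298 FPKM) and Gins1 (0.276 FPKM) failed the filter. The partners act in 1 complex, but their levels in the table spread widely, with a median of 1.37 FPKM.

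Of the 42 replication genes listed, 1 stood above Cdc45 and 41 below. The exception was Pcna, the clamp that holds DNA polymerases, at 18.8 FPKM. After Gins2 came the primase subunit Prim1 (11.2 FPKM) and the clamp loader subunits Rfc2 (8.68 FPKM) and Rfc4 (6.10 FPKM). The list had a median of 1.31 FPKM. The proliferation list, which holds genes such as Mki67 and Top2a that mark cycling cells, had 5 of its 13 genes above the filter, between 0.694 and 2.29 FPKM.

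Of the 34 endothelial genes listed, 32 were matched by symbol, and 10 of these stood above Cdc45 and 22 below. The highest were Slc2a1, the glucose transporter of the barrier (113 FPKM), Itm2a (47.8 FPKM), the thyroid hormone transporter Slco1c1 (42.9 FPKM), the VEGF receptor Flt1 (19.5 FPKM) and Ramp2 (19.2 FPKM). Only Slc2a1 lay above the upper limit for Cldn5 of 61.7 FPKM. All 32 matched genes passed the filter, so markers of vessels were present in the tissue. Pecam1 and Abcb1a were also listed but had no row under those symbols, so the endothelial values do not include them. Levels per length compare genes only as far as the counted lengths are right, and for Cdc45 that length is the 6390 to 6392 bases above.

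**Figure D2:**
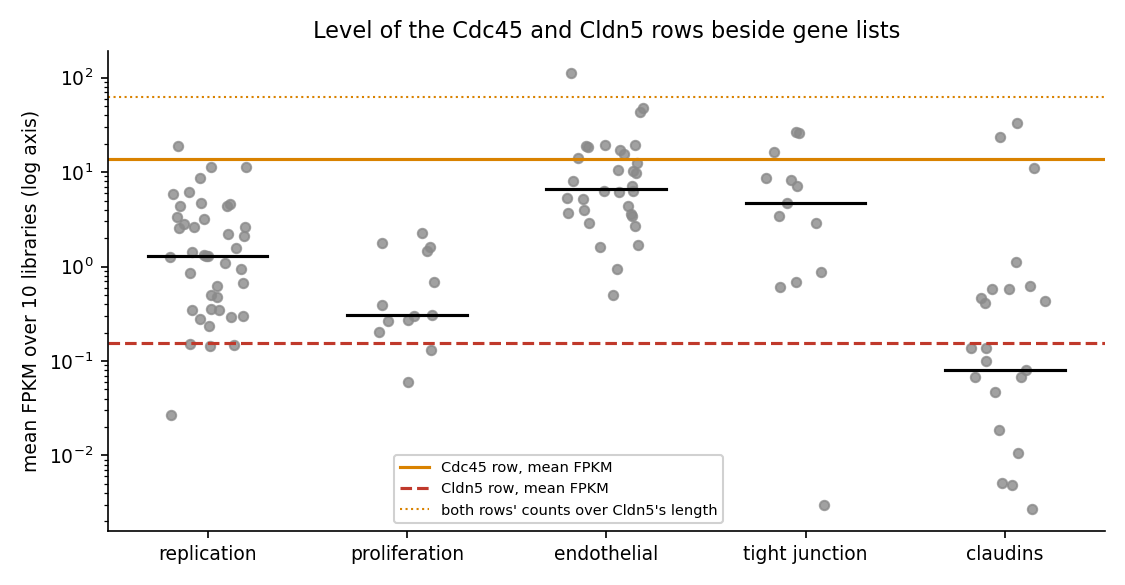
Mean FPKM over 10 libraries (log axis) of single genes in 5 gene lists (grey points, rows at 0 left out), with black bars for list medians. The Cdc45 row at 13.7 FPKM lies below 1 replication gene and amid the endothelial genes, and the Cldn5 row at 0.154 FPKM lies far below the level that both rows' counts would give over its length.

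The change of Cdc45 between the groups was then compared with the same lists. The lists were chosen with earlier results of these data known, and the study itself reports some of the endothelial genes as changed. The shares below are therefore a description only. Of the 32 endothelial genes, 31 had a log2 fold change below 0, with a median of -0.22, and 7 (21.9%) were lower in EA at an unadjusted p under 0.05, against 7.15% of all genes tested. With the adjusted p, 0 of them passed, and the lowest adjusted p was 0.106 (edgeR). Flt1 is an example, with 17.9 ± 1.98 FPKM in EA and 21.2 ± 1.08 FPKM in control libraries (SD, n = 5 each) and a log2 fold change of -0.22 (SE 0.08, adjusted p = 0.288, edgeR). At an unadjusted p under 0.05, 1000 of all 15169 genes tested were higher in EA. Of the 30 replication genes tested, 0 were lower and 1 was higher at that level, and the median log2 fold change was 0.02. The higher one was Gins3, with 1.47 ± 0.319 FPKM in EA and 1.04 ± 0.117 FPKM in control (SD, n = 5 each) and a log2 fold change of 0.52 (SE 0.17, adjusted p = 0.237, edgeR). Over all other genes tested the median log2 fold change was -0.002.

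Of the 13 tight junction genes listed, 12 were tested, with a median log2 fold change of -0.07. At an unadjusted p under 0.05 in edgeR, 2 of them (16.7%) were lower, against 7.15% of all genes tested. Lsr, a protein of junctions where 3 cells meet, had a log2 fold change of -0.31 (SE 0.12, adjusted p = 0.290, edgeR). Ocln, which encodes occludin, had -0.45 (SE 0.18, adjusted p = 0.307). Marveld2 (-0.46, adjusted p = 0.535) and Marveld1 (-0.19, adjusted p = 0.633) had the next lowest p. At the same level, genes of other cell types were lower too, against the same 7.15% of all genes. These were 4 of 10 pericyte, 3 of 6 oligodendrocyte, 3 of 5 oligodendrocyte precursor and 2 of 3 blood genes. The count was 0 of 6 for astrocyte, microglial and neuronal genes alike. Of the 6 neuronal genes 2 were higher, against 1000 of all 15169 genes tested. A share of lower genes above that of all genes was thus not particular to the endothelial list. The lists are not fully separate. The pericyte and oligodendrocyte precursor lists share a lower gene, and the endothelial and tight junction lists share Ocln. The part of other cell types in the values of Cdc45 was not tested.

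Whether Cdc45 follows endothelial or replication genes was asked within the groups, so that the difference between EA and control could not produce the relation. Each value was the deviation of a library from its group's mean on the log2 scale, over 10 libraries, and a list was summed up by the mean of its genes. With the 32 endothelial genes, Pearson's r was 0.21 (exact permutation p = 0.576, adjusted p = 0.628 over 12 lists) and Spearman's rho was 0.24 (exact permutation p = 0.542). Without EA 5 and control 5, the libraries farthest from the median, r was 0.01, and without EA 3 it turned to -0.072. With the 30 replication genes, r was -0.64 (exact permutation p = 0.0465, adjusted p = 0.162) and rho was -0.42 (exact permutation p = 0.266). Without control 1 and control 3 it was -0.29, so the negative relation rested on those libraries. The unadjusted p stayed under 0.05 in 3 of the 10 cases with 1 library left out. Neither list passed the adjusted threshold.

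The difference between the correlations, endothelial minus replication, was 0.85 (exact permutation p = 0.0189). With ranks it was 0.65 (exact permutation p = 0.101), leaving out EA 3 gave 0.56 (exact permutation p = 0.149) and leaving out control 3 gave 0.81 (exact permutation p = 0.0837). The libraries that were high in Cdc45 did not share 1 pattern in the lists. EA 3 and EA 4 had Cdc45 deviations of 0.20 and 0.17, but the endothelial genes stood at 0.15 in EA 3 and at -0.06 in EA 4. Control 3 had the highest Cdc45 deviation, 0.23, with endothelial genes at -0.05 and replication genes at -0.06. When the group means were kept, r over the 10 libraries was 0.71 with endothelial genes (permutation p = 0.0215) and -0.48 with replication genes (permutation p = 0.157). The pooled value contains the difference between the groups, which the choice of the pair had already used.

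**Figure D3:**
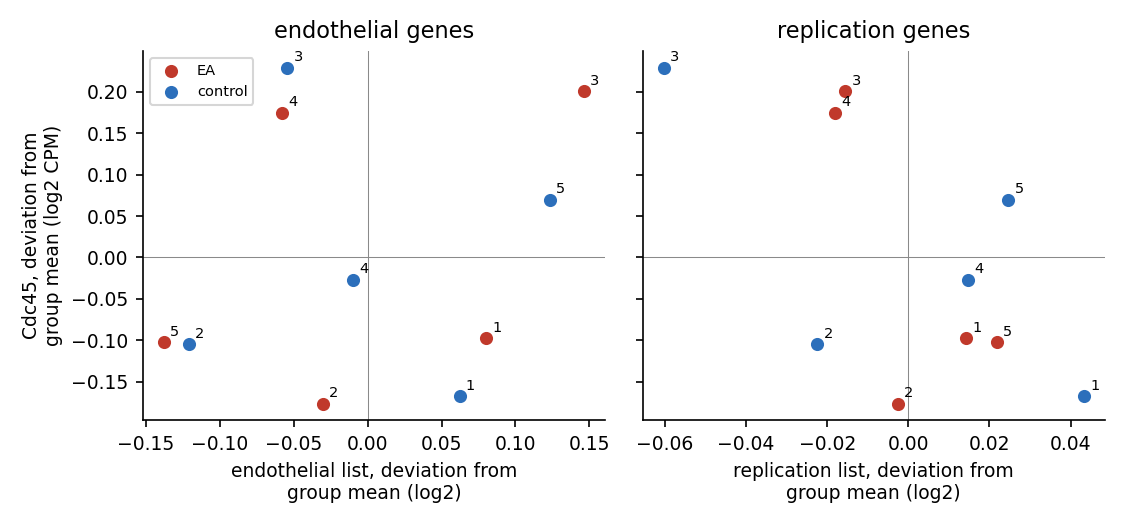
Deviation of Cdc45 from its group mean (log2 CPM) against the deviation of the mean of the endothelial genes (left panel) and of the replication genes (right panel), with 5 EA libraries in red, 5 control libraries in blue, and replicate numbers beside the points. The points scatter in the left panel (r = 0.21), and control 3 and control 1 mark the ends of the negative relation in the right panel (r = -0.64).

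Single genes differed widely in their likeness to Cdc45. The r of endothelial genes ran from -0.73 (Cd34) to 0.94 (Sox17), with a median of 0.35, and 19 of 32 were above 0. The r of replication genes ran from -0.77 (Gins3) to 0.67 (Cdc7), with a median of -0.09, and 13 of 30 were above 0. Over all other genes tested the median was 0.001. Both lists thus held genes with strongly positive and strongly negative values, and these values share libraries and depth.

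The 10 tested genes most like Cdc45 over the 10 libraries included Rplp1 (r = 0.96) and Rpl41 (0.95), which encode ribosomal proteins, and AABR07060522 (0.96). Mrpl52, of the mitochondrial ribosome, had 0.95. Sox17, a transcription factor of arterial endothelium, had 0.94, as did Cgref1 and Apoe, the apolipoprotein of astrocytes, and the Notch ligand Jag2 and the nuclear lamin Lmna had 0.93. Sox17 had 2.06, 2.01, 3.41, 3.30 and 1.96 FPKM in EA 1 to EA 5, against 2.64, 2.45, 4.59, 3.38 and 3.10 FPKM in control 1 to control 5. Like Cdc45 it was highest in EA 3 and EA 4 among EA libraries and in control 3 among controls. It had an adjusted p of 0.564 between the groups (edgeR). The 104 genes with a ribosomal protein symbol, a list added after these names were seen, had a median r of 0.43, with 83 above 0.

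Of the 12 lists, the neuronal one had the strongest relation to Cdc45. Its 6 genes gave r = -0.79 (exact permutation p = 0.00306, adjusted p = 0.0367) and rho = -0.77 (exact permutation p = 0.00875), and all 6 had a negative r, with a median of -0.70. Without EA 1 and EA 2 r was -0.73 (exact permutation p = 0.0306). Microglial genes gave 0.66, oligodendrocyte precursor genes 0.59, tight junction genes 0.50, oligodendrocyte genes -0.67 and proliferation genes -0.63, all with an adjusted p of at least 0.162 by the exact permutation test. The pericyte list gave 0.33 and the astrocyte list 0.40. The mean centred log2 level of the neuronal list, of which 6 of 6 genes passed the filter, ran from -0.12 to 0.21 in EA and from -0.07 to -0.01 in control libraries, so the groups overlapped. Cdc45 was high in libraries where neuronal genes were low, and the part of tissue makeup in this relation was not tested.

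**Figure D4:**
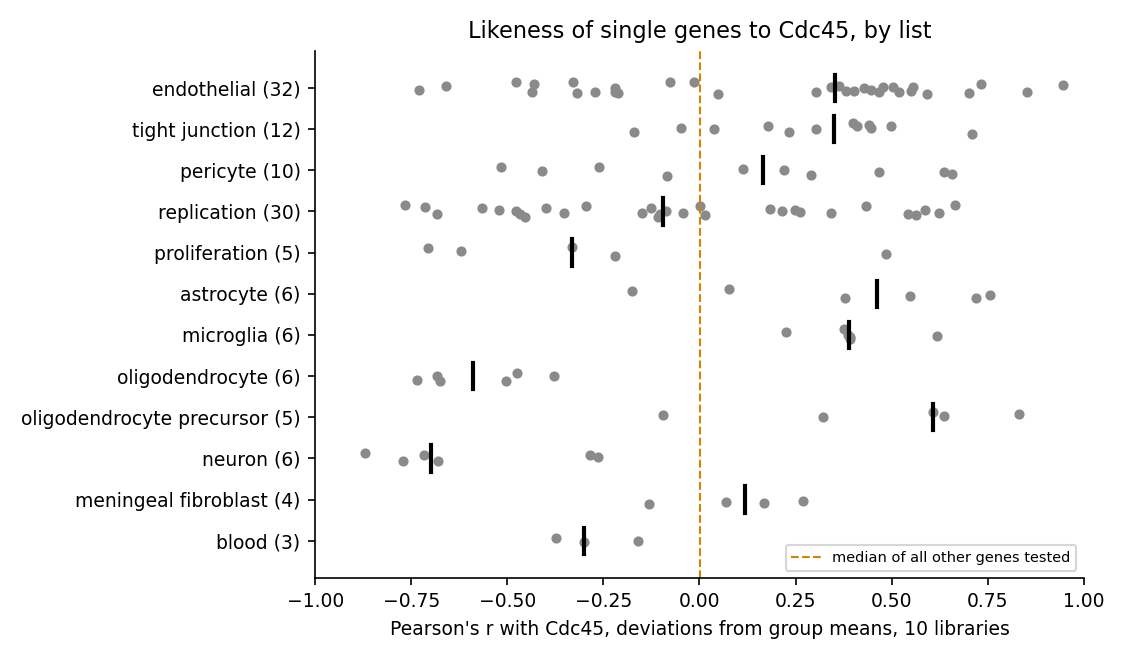
Pearson's r of single genes with Cdc45 over deviations from group means in 10 libraries, for 12 gene lists with the number of tested genes in brackets, with black bars for list medians and a dashed line for the median of all other genes. Endothelial genes spread from -0.73 to 0.94, and the 6 neuronal genes all lie below 0.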

How the data were processed

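Poly(A) RNA of rat cerebral cortex (5 EA and 5 control libraries) was sequenced in pairs after a dUTP protocol. After trimming with Cutadapt, the authors mapped reads with HISAT2 (Rnor_6.0), built transcripts with StringTie and combined them with gffcompare. Versions in the submitters' processing notes are 0.12.2 for Bowtie, 2.0 for HISAT2 and 1.3.0 for StringTie. The deposited FPKM values are those of the authors' ballgown step, and 0.0001 was read as 0. The deposited estimated counts are whole numbers, and the sources do not say how the authors derived them.

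Counts of genes that reached 0.5 FPKM in 5 or more of the 10 libraries were compared with edgeR 4.0.16 (TMM, quasi-likelihood F test, Benjamini-Hochberg over 15169 genes) in R 4.3.3, with limma 3.58.1 and DESeq2 1.42.0 as alternatives. Correlations used log2 TMM-scaled CPM with a prior count of 2 and all 14400 orders of libraries within groups, two-sided, and pooled ones 100000 resamples (Python 3.11.15, numpy 2.4.6, scipy 1.17.1, pandas 2.3.3, matplotlib 3.10.9). Scripts were tested on simulated data. Alternatives were the scaling, tool, unit, pseudocount, filter, replicate number, and libraries left out.

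The members and lists were chosen with earlier results of these data known. By rule the text names both members, rows within 100000 bases, the 10 genes most like Cdc45 (1 of them is not reported here), the 5 highest claudins, endothelial and replication genes, CMG partners and the 4 tight junction genes of lowest p. Sox17 and Flt1 were given in full, and Cd34, Cdc7, Mki67 and Top2a named, after their values were seen.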

Additional observations from a re-analysis of the deposited data

Results flagged for a closer look

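Cldn5 had 1.86 CPM (counts scaled to the library total) in control 5, where the other 4 control libraries had 0 to 0.440 CPM. The gap to the nearest control made up 0.764 of the group's range, above Dixon's critical value of 0.71 for 5 libraries. Chance alone gives such a gap in about 1 of 20 groups, and 18 groups of values were looked at. The value rests on 115 counts, and its cause was not tested. The gap is a description only, since the counts of 0 were among the values that chose the pair and 3 of the 5 controls stood at 0.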

How the results depend on the processing

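The log2 fold change of Cdc45 stayed below 0 in all 17 alternatives (-0.39 to -0.25) and missed the threshold in 16 of them. DESeq2 passed it, with -0.34 for Cdc45 (adjusted p = 0.0213) and -0.35 for the summed rows (adjusted p = 0.0198). Leaving out 1 library gave -0.39 to -0.28 for Cdc45 and -0.39 to -0.28 for the summed rows. Genes called numbered 3, but 166 with DESeq2, 0 with a replicate block and 1 (without EA 5 or control 5) to 5 (without EA 3) without 1 library. Same-numbered libraries did not deviate together (r from -0.003 to 0.061, 0 of 5 pairs over 0.1). The labels do not say whether the numbers pair libraries, and these values cannot exclude it. With a replicate block, 14 endothelial genes were lower at an unadjusted p under 0.05 in place of 7, and the log2 fold change of Cdc45 was -0.34 (adjusted p = 0.214). Without 1 library these were 5 to 9 endothelial genes, and 0 to 2 replication genes (2 without control 1, 1 without EA 3 or EA 5), with 1 replication gene when no filter was used. The share of all genes that were lower is given for the main fit alone (7.15%). The list counts of the other fits are therefore a description only, and nothing is read from their changes.

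The r of Cdc45 with endothelial genes was 0.71 when pooled over groups, -0.059 without EA 2 and EA 5, and -0.072 (without EA 3) to 0.40 without 1 library. With replication genes it was -0.64, with an unadjusted p under 0.05 but an adjusted p of 0.162. The unadjusted p was above 0.05 when pooled (-0.48), on log2(FPKM + 0.1) (-0.56) or log2(FPKM + 1) (-0.54), by rank (-0.42) and with summed rows (-0.61). The same held without EA 2 and EA 5 (-0.69) and without control 1 and control 3, farthest in the replication list (-0.29). It also held with a replicate block (-0.58) and over genes with a mean FPKM of 2 or more (-0.16). Without 1 library r was -0.76 to -0.41. The difference of 0.85 had an unadjusted p above 0.05 on log2(FPKM + 0.1) (0.82) or log2(FPKM + 1) (0.91), by rank (0.65) and without EA 2 and EA 5 (0.63). The same held without EA 5 and control 5, farthest in the endothelial list (0.73). It also held with a replicate block (0.83) and over genes with a mean FPKM of 2 or more (0.66). Without 1 library the difference was 0.56 (EA 3) to 0.96. Its unadjusted p was under 0.05 in 8 of 10 cases and not without EA 3 or control 3 (0.81). The cause of these changes was not tested. Where Cldn5 has a count of 0, depth limits the share of counts assigned to its row to 0.0450 to 0.0728%, and this does not limit how many of the Cdc45 counts came from Cldn5.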
